A study of Homo sapiens with 36 samples.

Results

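The enzymes of serine synthesis and of folate-bound one-carbon metabolism were followed in 2 human colorectal cancer cell lines under chemical hypoxia. The 9 genes were chosen by name from textbook pathways, as 9 of the 60591 rows of the deposited mRNA count table. Earlier results of these data were known when they were chosen. They are PHGDH, PSAT1 and PSPH, which make serine from a glycolytic intermediate, SHMT1 and SHMT2, which split serine into glycine and a folate-bound one-carbon unit, and MTHFD1, MTHFD2, MTHFD1L and ALDH1L2, which oxidise, reduce, release or use up that unit. All 9 had a row in the table. In Caco-2 all 9 passed the filter on low counts, and in HT-29 all but ALDH1L2 did.

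Caco-2 and HT-29 both come from colorectal adenocarcinomas. Caco-2 had differentiated over 21 days, in Eagle's MEM to which 20% serum was added, under conditions in which it forms a polarised, enterocyte-like layer, and HT-29 was grown in McCoy's 5A medium with 10% serum. Both lines were then treated for 24 h with 300 µM CoCl2 or with 5 µM of an oxyquinoline derivative (OD, labelled Oxy), and control cells had only the solvent dimethyl sulfoxide (0.5 µl per ml). Each of the 6 groups had 3 replicates, given as biological by the submitters, for 18 mRNA libraries. CoCl2 and OD are both used to stabilise the hypoxia-inducible factor (HIF) at normal oxygen, and their doses differ. OD was dissolved in dimethyl sulfoxide and CoCl2 in water. The labels do not say that the CoCl2 medium held the solvent, while the study's methods do, at another concentration. Line, culture state, medium and serum differ together, so they cannot be told apart in any comparison between the lines, and each line stands for 1 culture model. By the labels both media held non-essential amino acids, a supplement that contains serine and glycine.

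As background, serine made from glucose or taken up from the medium is the main source of one-carbon units in proliferating cells. In the mitochondrion SHMT2, MTHFD2 and MTHFD1L turn serine into formate, and in the cytosol MTHFD1 and SHMT1 use that formate for purines, thymidylate and serine. ALDH1L2 burns the mitochondrial unit to CO2 and yields NADPH. The transcription factor ATF4, which answers amino acid shortage and other stress, is known to drive several of these genes.

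The libraries held from 12925719 to 22332639 counts. Of 8 intestinal epithelial markers, 8 had counts in every group, with a summed level of 5132 to 9291 CPM per library (CPM, the count scaled to a common library size, here with TMM factors, which set most genes to equal levels, taken within a line). Within HT-29 control, KRT8 and KRT18 made up most of the epithelial sum, at 2192 and 1468 CPM. CDX2 and CDH17 stood at 12.8 and 11.9 CPM there, against 154 and 1045 CPM in Caco-2 control. Of 8 enterocyte markers, all had counts in Caco-2, with sums of 3538 to 5238 CPM, against sums of 131 to 204 CPM in HT-29, where APOA4 was at 0 in control and OD. Most of each enterocyte sum came from APOA1 in Caco-2 (group means of 2545 to 3721 CPM) and DPP4 in HT-29 (123 to 189 CPM). Single markers went both ways with CoCl2. In Caco-2 SI went from 289 to 115 CPM and APOA4 from 13.1 to 61.2 CPM. In HT-29 the epithelial marker VIL1 went from 205 to 33.6 CPM and KRT20 from 321 to 755 CPM. The 5 fibroblast, 4 leukocyte and 3 endothelial markers summed to at most 31.1, 5.63 and 12.5 CPM, with COL1A2 and COL3A1 at 0 in HT-29 control, PTPRC at 0 in Caco-2 control and CDH5 at 0 in all HT-29 groups. Other members of these lists did have counts. Their means in Caco-2 control were 25.1 CPM for COL1A1, 3.74 CPM for LUM, 4.64 CPM for CD14 and 8.84 CPM for PECAM1. As a check of the treatments, NDRG1 and PDK1, which HIF is known to induce, rose with CoCl2 in both lines, NDRG1 by 2.87 (Caco-2) and 5.97 (HT-29) and PDK1 by 3.34 and 2.93 on the log2 scale. With OD, NDRG1 rose by 2.46 and 2.82 in these lines. PDK1 rose by 2.76 with OD in Caco-2, while in HT-29 it stood at -0.06 (FDR 0.462), where CA9 rose by 1.28. The RNA is from bulk cultures, so that less RNA of a gene per cell and fewer cells that express it cannot be told apart.

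Fold changes are log2 values from a model of the counts, given with a standard error (SE) or a 95% interval and with the false discovery rate (FDR) over all genes tested. A gene passed the test at an FDR under 0.05, and was called where its log2 fold change was also over 1 in size. Levels are CPM, with the mean ± SD of 3 replicates. Whether the libraries of 2 groups overlap is a description, and the share of all genes without overlap was not counted. OD and control in Caco-2 did not overlap for any of the 9 genes, 4 of which did not pass the test. Levels are compared between genes only as RPKM, reads per length of transcript and library size, computed from the counts over all 18 libraries with gene lengths taken back from the authors' RPKM table.

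In control cells the balance of the 9 genes differed between the lines. In Caco-2 control, SHMT2 had the highest level per length with 23.7 ± 0.667 RPKM, followed by PSPH with 21.5 ± 0.367 RPKM and PHGDH with 19.9 ± 0.70 RPKM. MTHFD2 (15.5 ± 1.28 RPKM) and PSAT1 (14.2 ± 1.00 RPKM) came next, with ranges that overlapped. MTHFD1, SHMT1 and MTHFD1L followed with 8.63, 7.35 and 4.67 RPKM, and ALDH1L2 was lowest with 0.552 ± 0.116 RPKM. The order in HT-29 control was another one. There PSAT1 stood at 215 ± 20.6 RPKM, above MTHFD2 (101 ± 12 RPKM) and SHMT2 (92.4 ± 8.69 RPKM), whose ranges overlapped. PSPH had 45.7 ± 5.90 RPKM, MTHFD1L and PHGDH overlapped at 15.3 ± 2.15 and 13.6 ± 1.19 RPKM, and MTHFD1 and SHMT1 overlapped at 6.35 ± 0.449 and 5.93 ± 0.190 RPKM. ALDH1L2 was again lowest, at 0.0498 ± 0.0207 RPKM. The lengths behind these RPKM are close to the sum of all annotated exons for PHGDH, at 9169 bases, and long for MTHFD1 as well, at 12144, so genes with long rare exons stand lower in this order than they would per transcript.

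Against Caco-2 control, 5 of the 9 genes were called higher in HT-29 control, where 21.6% of the 17921 genes tested were, and 1 was called lower, against 24.2% of all genes. PSAT1 differed most, with a log2 fold change of 3.92 ± 0.0834 (SE, FDR 1.13e-29), which is a 15.1-fold higher level. The 3 mitochondrial enzymes of formate production were higher as well, MTHFD2 by 2.70, SHMT2 by 1.96 and MTHFD1L by 1.72, and PSPH by 1.09. The cytosolic enzymes were lower in HT-29 and not called, with -0.44 for MTHFD1 and -0.31 for SHMT1, and PHGDH stood at -0.54. ALDH1L2 was called lower at -3.49 ± 0.304 (FDR 1.93e-12). By the FDR alone, 5 genes were higher and 4 lower, against 39.5% and 39.6% of all genes.

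**Figure D1:**
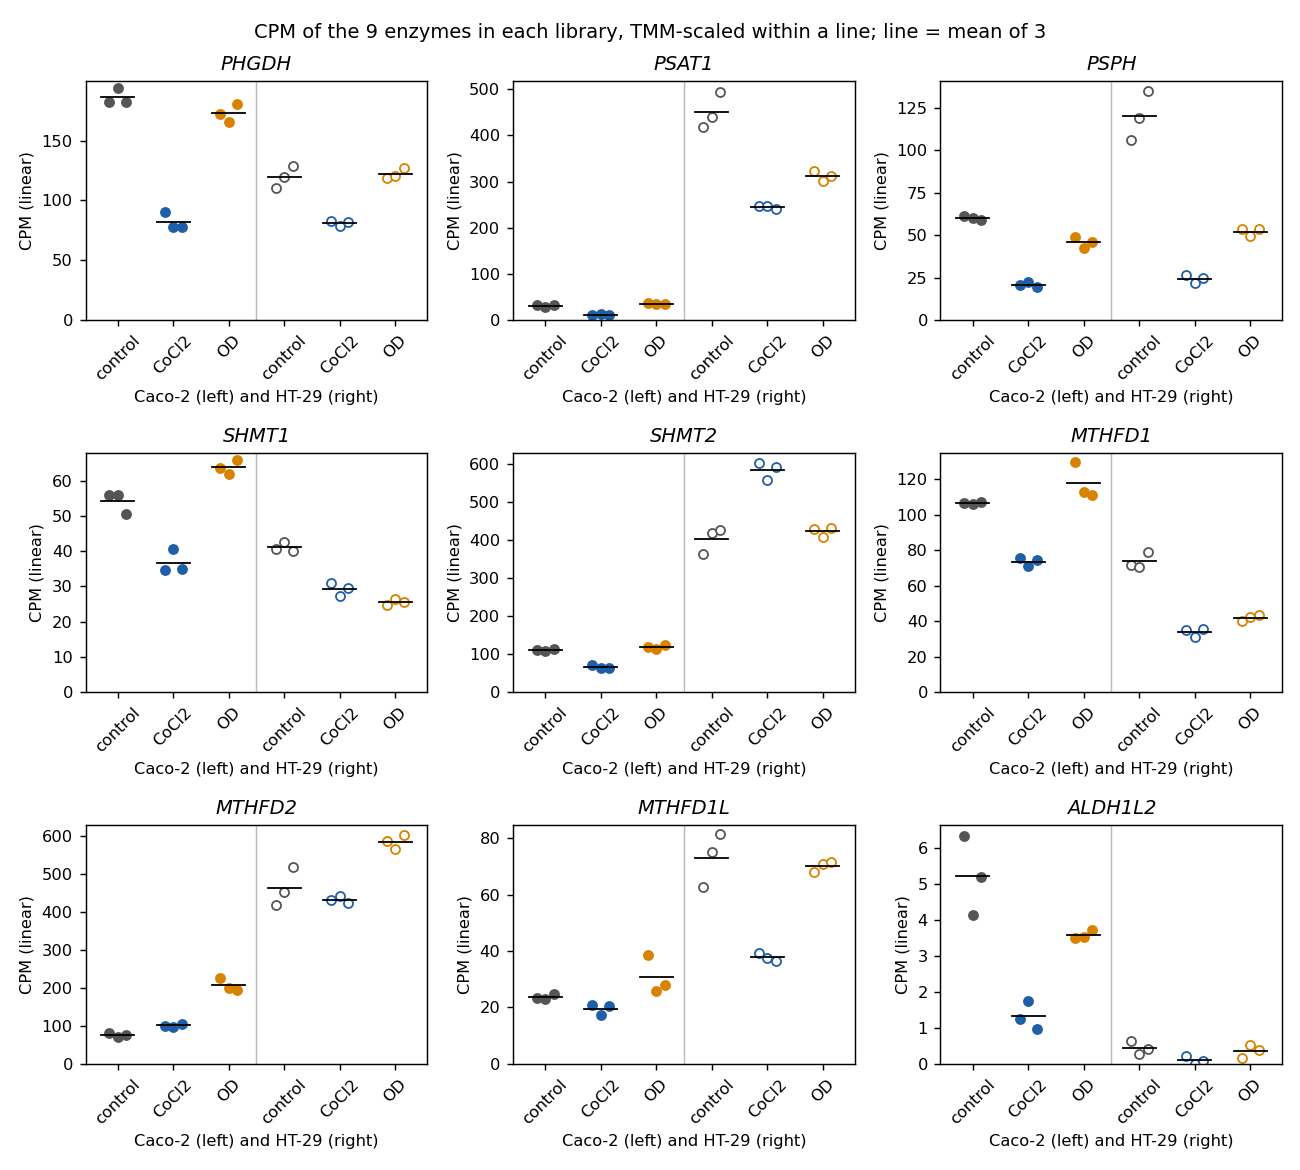
Level of each of the 9 genes in each library, as CPM on a linear axis, with Caco-2 as filled and HT-29 as open circles, and the mean of 3 replicates as a line. With CoCl2 the 3 serine synthesis genes lie below their controls in both lines, and MTHFD2 lies highest with OD in both.

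The serine synthesis genes fell together with CoCl2 in both lines. PHGDH, the first and committed enzyme of the pathway, had 182, 194 and 182 CPM in the Caco-2 control libraries, 90.4, 77.8 and 78.0 CPM with CoCl2, and 172, 165 and 180.4 CPM with OD. All 3 CoCl2 libraries lay below every other Caco-2 library, and the OD libraries lay just below the controls. PHGDH fell by 1.18 on the log2 scale with CoCl2 (95% interval -1.34 to -1.02, FDR 2.36e-12) and stood at -0.11 with OD (interval -0.26 to 0.05, FDR 0.237). With library size alone the OD value passed, at -0.26 (FDR 0.00592). In HT-29 PHGDH had 111, 119 and 129 CPM in control, 82.7, 78.4 and 82.4 CPM with CoCl2, and 119, 121 and 127 CPM with OD. Here too the CoCl2 libraries were the lowest, while OD and control overlapped. The change with CoCl2 in HT-29 was -0.56 (FDR 7.32e-10), past the FDR and short of the limit on the fold change, and with OD the value was 0.03 (interval -0.08 to 0.14, FDR 0.669).

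PSAT1, the aminotransferase of the second step, was low in Caco-2, with 32.6, 29.2 and 33.4 CPM in control. It stood at 11.7, 14.6 and 10.5 CPM with CoCl2 and at 38.0, 35.2 and 35.6 CPM with OD. The CoCl2 libraries did not overlap with the control or OD libraries, and OD lay above control in every library. PSAT1 fell with CoCl2 by 1.38 on the log2 scale (SE 0.116, FDR 2.41e-10), and with OD its value of 0.19 did not pass (FDR 0.133). In HT-29 the levels were 418, 440.3 and 494 CPM in control, 247, 248 and 242 CPM with CoCl2, and 324, 301 and 312 CPM with OD. The 3 groups were separate, with OD between CoCl2 and control. PSAT1 changed there by -0.88 with CoCl2 (FDR 1.60e-14) and by -0.53 with OD (FDR 9.43e-10). The table has 4 rows for pseudogene copies of PSAT1, which held at most 31 counts together in a library, or up to 11% of the counts of gene and copies in Caco-2, where PSAT1 is low.

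PSPH, the phosphatase that releases serine, fell past the FDR in all 4 comparisons with control. No other of the 8 genes tested in both lines did so. Taken singly, these comparisons had 24.7% to 42.2% of all genes lower past the FDR. How many genes were lower in all 4 was not counted, and comparisons within a line share their control libraries. The CPM of PSPH were 61.2, 60.3 and 59.1 in Caco-2 control, 20.8, 22.7 and 19.5 with CoCl2 and 49.3, 42.6 and 45.8 with OD. In HT-29 they were 106, 119 and 135 in control, 26.9, 21.7 and 24.9 with CoCl2 and 53.5, 49.4 and 53.8 with OD. In both lines the groups were separate and stood in the order CoCl2, OD, control. With CoCl2 PSPH changed by -1.52 ± 0.0919 in Caco-2 (FDR 5.37e-13), and its change of -2.30 ± 0.0792 in HT-29 (FDR 7.65e-20) is a 4.93-fold lower level. With OD the Caco-2 value was -0.39 (FDR 0.000543), not called, and that of HT-29 was -1.21 ± 0.0689 (FDR 1.91e-14).

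SHMT1, the cytosolic enzyme that splits serine, had 55.9, 56.1 and 50.5 CPM in Caco-2 control, 34.6, 40.8 and 34.8 CPM with CoCl2 and 63.6, 62.0 and 65.9 CPM with OD. The 3 groups were separate, with OD highest. SHMT1 passed with a change of -0.56 for CoCl2 (FDR 5.01e-06) and of 0.24 for OD (FDR 0.0232). The OD value was 0.082 (FDR 0.446) with library size alone, 0.19 (FDR 0.121) without control replicate 3 and 0.22 (FDR 0.0611) without OD replicate 3. The HT-29 libraries had 40.7, 42.7 and 40.0 CPM in control, 31.0, 27.2 and 29.5 CPM with CoCl2, and 24.8, 26.5 and 25.6 CPM with OD, so that OD was lowest there. Both changes passed, at -0.49 (FDR 9.28e-08) and -0.68 (FDR 2.70e-10).

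SHMT2, its mitochondrial counterpart, moved in opposite directions in the lines with CoCl2. In Caco-2 it had 110.1, 107 and 113 CPM in control, 70.1, 64.3 and 63.6 CPM with CoCl2, and 118, 115 and 124 CPM with OD. In HT-29 it had 364, 419 and 427 CPM in control, 603, 559.8 and 592 CPM with CoCl2, and 430.3, 408 and 432 CPM with OD. The CoCl2 libraries were thus the lowest in Caco-2 and the highest in HT-29, without overlap with control. The log2 fold change was -0.74 ± 0.0753 (FDR 6.30e-09) for Caco-2, and for HT-29 it was 0.54 ± 0.0526 (FDR 4.82e-10). The direction in HT-29 rests on the scaling, since with library size alone, which moves the median of all genes by -0.63 in that comparison, SHMT2 stood at -0.10 (FDR 0.0724). With OD it did not pass in either line, at 0.11 (interval -0.04 to 0.26, FDR 0.214) and 0.07 (interval -0.04 to 0.18, FDR 0.251). NDUFA4L2, whose gene shares 33 exon bases with SHMT2 on the other strand, had 18.8 CPM in HT-29 control and 116 CPM with CoCl2, and at most 4 counts in any Caco-2 library. The strand setting of the counting is not given in the sources used here, and the part of those reads in the SHMT2 counts was not tested.

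MTHFD1, the trifunctional cytosolic enzyme, had 107, 106 and 107 CPM in Caco-2 control, 75.4, 70.9 and 74.2 CPM with CoCl2 and 129.9, 113 and 111 CPM with OD. The CoCl2 libraries were the lowest and those of OD lay above the controls. MTHFD1 changed by -0.54 with CoCl2 (FDR 1.75e-06), and with OD its value of 0.15 did not pass (FDR 0.114). In HT-29 it fell with both agents, from 71.8, 70.5 and 79.0 CPM in control to 35.0, 31.1 and 35.6 CPM with CoCl2 and 40.1, 42.4 and 43.4 CPM with OD. Neither treated group overlapped with control. The changes were -1.13 ± 0.0629 (FDR 3.26e-15), which was called, and -0.82 ± 0.0587 (FDR 2.08e-12). ZBTB25, which shares 178 exon bases with MTHFD1 on the other strand, had 11.5 CPM in HT-29 control, 21.0 CPM with CoCl2 and 19.7 CPM with OD, the opposite direction.

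MTHFD2, the mitochondrial dehydrogenase and cyclohydrolase, was highest with OD in both lines. In Caco-2 it had 81.8, 69.5 and 76.2 CPM in control, 100.3, 98.2 and 106 CPM with CoCl2, and 225, 199 and 195 CPM with OD. The 3 groups were separate, and the lowest OD library lay well above the highest of the others. The change with OD was 1.44 ± 0.0808 (interval 1.28 to 1.61, FDR 3.57e-13), a 2.72-fold higher level, and with CoCl2 it was 0.42 (FDR 8.21e-05), or 0.10 (FDR 0.260) with library size alone. In HT-29 the CPM were 418, 454 and 518 in control, 430.5, 443 and 423 with CoCl2, and 586, 565 and 603 with OD. CoCl2 and control overlapped, and all OD libraries lay above both. MTHFD2 rose with OD by 0.33 in HT-29 (FDR 7.48e-06) and did not pass with CoCl2, at -0.10 (interval -0.22 to 0.01, FDR 0.0931). That value passed at -0.16 (FDR 0.00997) with no filter on low counts, at -0.74 (FDR 7.53e-13) with library size alone and at -0.18 (FDR 0.00406) without control replicate 1. It also passed at -0.13 (FDR 0.0348) with a mean of at least 1 CPM and at -0.21 (FDR 0.00905) with all 18 libraries in 1 fit. With limma-trend it passed at -0.19 on the deposited log2(RPKM + 1) values (FDR 0.0171) and on log2(RPKM + 0.1) (FDR 0.0169).

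MTHFD1L, the mitochondrial enzyme that releases formate, had 23.3, 23.0 and 24.9 CPM in Caco-2 control, 20.7, 17.4 and 20.4 CPM with CoCl2, and 38.5, 25.9 and 27.9 CPM with OD. The groups were separate, but 1 OD library stood apart from the other OD libraries. The change with OD was 0.37 (FDR 0.0149), and without that library, OD replicate 1, it was 0.18 (FDR 0.189). It also missed the FDR without control replicate 1 (0.36, FDR 0.0502) or 2 (0.35, FDR 0.0525) and with library size alone (0.21, FDR 0.141). The value with CoCl2 was -0.28 (interval -0.55 to -0.02, FDR 0.0573), near the limit. It passed at -0.60 (FDR 0.00024) with library size alone and at -0.30 (FDR 0.0457) with a mean of at least 1 CPM. At -0.28 it passed with no filter on low counts (FDR 0.0489), the replicate block (FDR 0.0408) and all 18 libraries in 1 fit (FDR 0.0349). In HT-29 MTHFD1L had 62.6, 75.0 and 81.5 CPM in control, 39.2, 37.7 and 36.5 CPM with CoCl2 and 68.0, 70.9 and 71.5 CPM with OD. CoCl2 lay below control, and OD overlapped with it. The change with CoCl2 was -0.96 ± 0.0718 (FDR 1.90e-12), just short of a call, and with OD it was -0.07 (interval -0.20 to 0.07, FDR 0.359), or -0.16 (FDR 0.0115) without control replicate 1 and -0.20 (FDR 0.00691) with library size alone.

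ALDH1L2, which oxidises the mitochondrial unit, was the least abundant of the 9. The Caco-2 libraries held 109, 62 and 75 counts in the control libraries (6.35, 4.16 and 5.19 CPM), 15, 24 and 18 counts with CoCl2 (1.25, 1.74 and 0.974 CPM), and 52, 59 and 53 counts with OD (3.50, 3.54 and 3.74 CPM). The 3 groups were separate at these low counts. With CoCl2 it fell by 2.01 on the log2 scale (SE 0.250, FDR 1.79e-07), the lowest value of the 9 in that comparison, and with OD by 0.55 (SE 0.212, FDR 0.0340). The OD value was -0.38 (FDR 0.221) without control replicate 1, and it missed the FDR with DESeq2 (-0.53, FDR 0.126), with no filter on low counts (-0.52, FDR 0.0606) and without control replicate 3 or any 1 of the OD libraries. In HT-29 it had 10, 5 and 11 counts in control, 3, 0 and 1 with CoCl2 and 3, 9 and 7 with OD, and it did not pass the filter on low counts. The CoCl2 libraries lay below the control libraries and those of OD overlapped with them. Where the gene was kept, CoCl2 against control stood at -2.09 (FDR 0.00653) with no filter, -2.13 (FDR 0.00793) with all 18 libraries in 1 fit and -2.13 (FDR 0.0575) with DESeq2, and OD against control did not pass (FDR 0.591 to 0.768).

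The upstream bases of MTHFD1, MTHFD2 and MTHFD1L are shown because MTHFD2 rose with OD in both lines, while its relative MTHFD1 fell with OD in HT-29 and MTHFD1L did not pass there. Each is the 250 bases before a RefSeq start on GRCh38.p14, 5′ to 3′ on the plus strand of the gene, for MTHFD1 at chr14:64388103-64388352, for MTHFD2 at chr2:74198365-74198614 and for the first of 4 listed starts of MTHFD1L at chr6:150866236-150866485. Capitals mark matches, on either strand, to the core of the hypoxia response element (ACGTG or GCGTG) or to the composite element of ATF4 (TGATGNAAN).
MTHFD1: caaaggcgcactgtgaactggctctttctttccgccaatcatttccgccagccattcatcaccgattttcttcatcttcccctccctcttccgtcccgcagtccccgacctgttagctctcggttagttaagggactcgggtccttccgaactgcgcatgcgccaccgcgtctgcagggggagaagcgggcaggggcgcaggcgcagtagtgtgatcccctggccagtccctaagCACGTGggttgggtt
MTHFD2: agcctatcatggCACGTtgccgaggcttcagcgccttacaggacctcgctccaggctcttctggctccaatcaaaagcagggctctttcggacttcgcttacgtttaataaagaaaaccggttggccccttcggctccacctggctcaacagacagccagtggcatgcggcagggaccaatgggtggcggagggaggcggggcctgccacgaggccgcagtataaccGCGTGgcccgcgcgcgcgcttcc
MTHFD1L: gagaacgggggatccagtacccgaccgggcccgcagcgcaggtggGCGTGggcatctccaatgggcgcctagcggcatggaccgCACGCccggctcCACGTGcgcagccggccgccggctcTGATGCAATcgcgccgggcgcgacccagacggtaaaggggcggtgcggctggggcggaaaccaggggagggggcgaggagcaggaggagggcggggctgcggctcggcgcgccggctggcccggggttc
RefSeq starts were matched for 6 of the 9 genes, in 9 windows of 300 bases (250 before and 50 after the start), of which 3 of MTHFD1L overlap. A match to the hypoxia core stood in 6 of the 9 windows, against 48.4% of all 35116 windows and 58.7% of the 16864 windows of genes tested here. The 3 overlapping windows of MTHFD1L hold the same sites. Counted by gene, 4 of 6 held a match, close to the share of 7925 of the 11715 genes tested that have a window. MTHFD2 held the hypoxia core at 2 places, -238 to -234 and -23 to -19 from the start. In MTHFD1 and MTHFD1L the matches on the 2 strands overlap as CACGTG, which is also the letters of an E-box. The ATF4 element stood in 3 windows, all of MTHFD1L, which hold the same single site (-129 to -121 in the window printed). Counted by gene, that is 1 of 6, against 351 of the 11715 genes tested that have a window. By window, the shares were 3.61% of all windows and 2.21% of those of genes tested. PHGDH and SHMT1 held neither, and PSAT1 held 1 hypoxia core after its start.

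Counted over the set, CoCl2 against control in Caco-2 had 4 of 9 genes called lower, where 14.2% of the 16034 genes tested were, and 0 called higher, against 9.13%. By the FDR alone 7 were lower and 1 higher, against 33.1% and 31.6% of all genes. With OD in Caco-2, 1 gene was called higher, against 4.43% of all genes, and by the FDR 3 were higher and 2 lower, against 25.7% and 24.7%. In HT-29 with CoCl2, 2 of the 8 genes tested were called lower, against 23.9% of 15812 genes, and by the FDR 6 were lower and 1 higher, against 42.2% and 40.7%. With OD in HT-29, 1 of 8 was called lower, against 7.57%, and by the FDR 4 were lower and 1 higher, against 34.0% and 34.7%. With CoCl2 the members had a median log2 fold change of -0.74 in Caco-2, and with OD it was 0.15. For HT-29 these medians were -0.72 and -0.30. The medians of all genes tested were -0.03, -0.02, -0.03 and 0.01 in that order. The comparisons within a line share their control libraries. With library size alone in place of TMM, the median of all genes moves by -0.32, -0.15, -0.63 and -0.14 in these comparisons, so directions are relative to that of most genes.

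**Figure D2:**
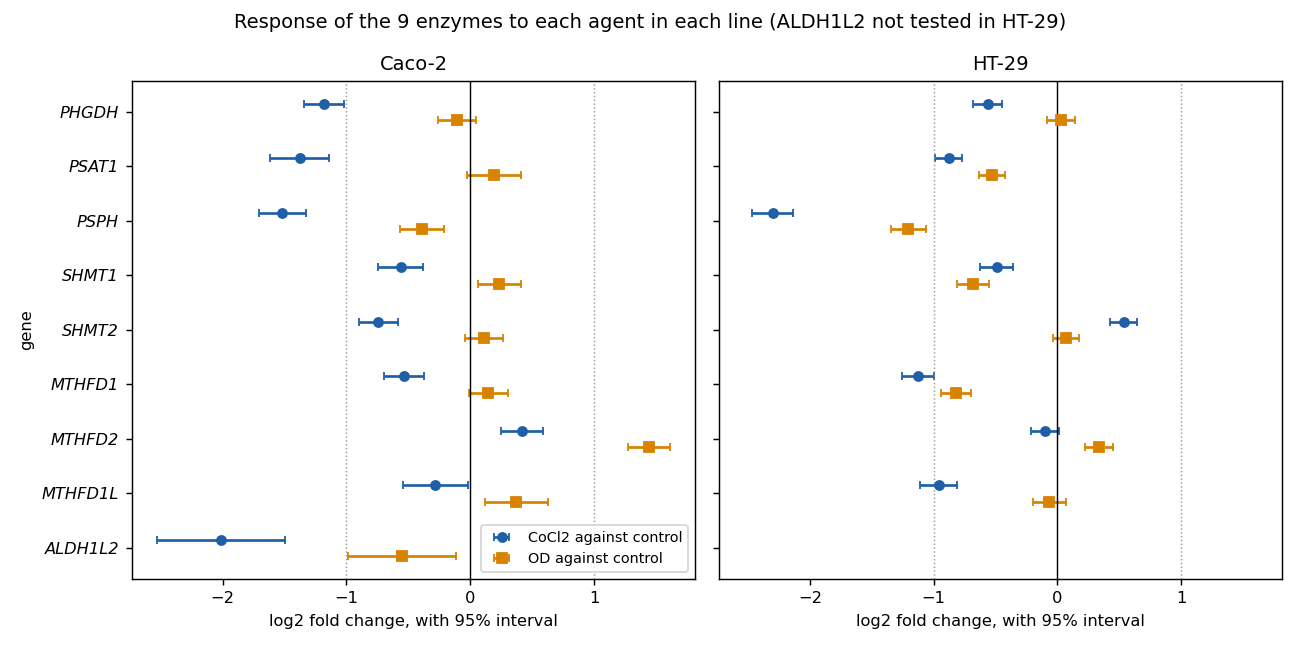
Log2 fold change of each gene against control with its 95% interval, for CoCl2 (circles) and OD (squares) in Caco-2 (left) and HT-29 (right), with dotted lines at -1 and 1. PSPH lies left of 0 in all 4 comparisons, MTHFD2 with OD in Caco-2 lies at 1.44, and SHMT2 with CoCl2 lies on opposite sides of 0 in the lines.

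Set directly against OD, CoCl2 gave lower levels of all 9 genes in Caco-2 past the FDR, where 25.2% of all genes were lower, and 5 were called (PHGDH, PSAT1, PSPH, MTHFD2 and ALDH1L2), against 6.44%. The differences ran from -0.65 for MTHFD1L to -1.57 for PSAT1. In HT-29, 6 of 8 genes were lower with CoCl2 than with OD and 2 were higher, against 40.6% and 37.1% of all genes, and PSPH alone was called, at -1.10 ± 0.0841 (FDR 4.65e-12), against 19.2%. The 2 genes that were higher were SHMT2 at 0.47 (FDR 8.56e-09) and SHMT1 at 0.19 (FDR 0.0141), and with library size alone they stood at -0.03 (FDR 0.589) and -0.31 (FDR 0.000243). Without HT-29 CoCl2 replicate 1, SHMT1 stood at 0.15 (FDR 0.0778), and it also missed the FDR with no filter (0.14, FDR 0.198) and with all 18 libraries in 1 fit (0.096, FDR 0.306). The agents were given at 300 µM and 5 µM, so these differences are between those doses.

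Whether the lines responded differently was tested as the HT-29 response minus the Caco-2 response over all 18 libraries. With CoCl2, 3 genes had a higher and 4 a lower response in HT-29 past the FDR, against 21.1% and 28.6% of all genes. SHMT2 was called, with a difference of 1.17 ± 0.0945 (interval 0.98 to 1.36, FDR 1.89e-12), against 7.79% of all genes called higher, and with library size alone the difference was 0.97, short of a call. PHGDH and PSAT1 also had a higher, that is a less negative, response in HT-29, by 0.51 and 0.40, or by 0.31 (FDR 0.00816) and 0.19 (FDR 0.179) with library size alone, while PSPH (-0.88), MTHFD1L (-0.78), MTHFD1 (-0.70) and MTHFD2 (-0.63) had a lower one. PSAT1 also missed the FDR without Caco-2 CoCl2 replicate 3 (0.28, FDR 0.0762). SHMT1 did not differ past its error (-0.04, interval -0.26 to 0.18, FDR 0.825), and its sign depends on the scaling. With OD, 6 genes had a lower response in HT-29 and 0 a higher one past the FDR, against 22.0% and 20.9% of all genes. MTHFD2 was called, at -1.13 ± 0.104 (interval -1.34 to -0.92, FDR 7.49e-11), against 6.24% called lower. MTHFD1 (-0.98), SHMT1 (-0.93), PSPH (-0.83), PSAT1 (-0.74) and MTHFD1L (-0.45) followed, and PHGDH (0.12, FDR 0.339) and SHMT2 (-0.06, FDR 0.654) did not pass. MTHFD1L missed the FDR without Caco-2 OD replicate 1 (-0.27, FDR 0.0890) or HT-29 control replicate 3 (-0.36, FDR 0.0530), which leaves 5 genes. For ALDH1L2 the intervals were wide, -1.22 to 0.98 with CoCl2 and -0.94 to 1.36 with OD.

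**Figure D3:**
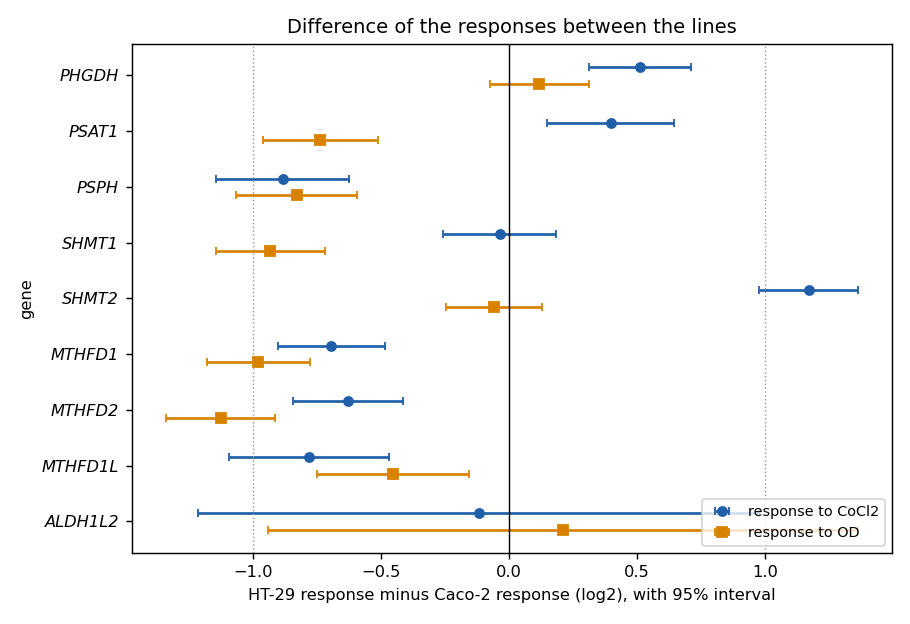
HT-29 response minus Caco-2 response of each gene on the log2 scale, with its 95% interval, for CoCl2 (circles) and OD (squares), with dotted lines at -1 and 1. SHMT2 with CoCl2 lies at 1.17 and MTHFD2 with OD at -1.13, the 2 values past the dotted lines.

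The mitochondrial and cytosolic members of a pair were also set against each other within each library, per length. SHMT2 stood at 3.24 ± 0.276 times the level of SHMT1 in Caco-2 control. With CoCl2 the ratio was 2.87 ± 0.357, and OD gave 2.96 ± 0.0293. Here CoCl2 overlapped with control, and OD lay just below it. In HT-29 the ratio was 15.6 ± 1.39 in control, 31.8 ± 0.859 with CoCl2 and 26.2 ± 1.59 with OD, and both treated groups lay above all controls. The ratio of MTHFD2 to MTHFD1 was above control with each agent in each line. It stood at 1.80 ± 0.143 in Caco-2 control, at 3.49 ± 0.122 for CoCl2 and at 4.43 ± 0.0441 for OD. The HT-29 ratios were 15.9 ± 0.989, 32.4 ± 3.22 and 35.3 ± 1.66 in that order. For MTHFD1L over MTHFD1 the ratios were 0.541 ± 0.0209, 0.644 ± 0.0422 and 0.629 ± 0.0827 in Caco-2 control, CoCl2 and OD, and 2.41 ± 0.249, 2.72 ± 0.229 and 4.06 ± 0.0595 in HT-29. In that pair CoCl2 lay above control in Caco-2 and overlapped with it in HT-29, while OD overlapped with control in Caco-2 and lay above it in HT-29. These ratios do not depend on how libraries are scaled, and no test was run on them. Their size does depend on the gene lengths used. These were 12144 bases for MTHFD1 and 7243 for SHMT1, against 4797 for MTHFD2, 4995 for MTHFD1L and 4568 for SHMT2. In Caco-2 control MTHFD2 had fewer CPM than MTHFD1, 75.9 against 107. The change of a ratio between groups does not depend on these lengths.

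**Figure D4:**
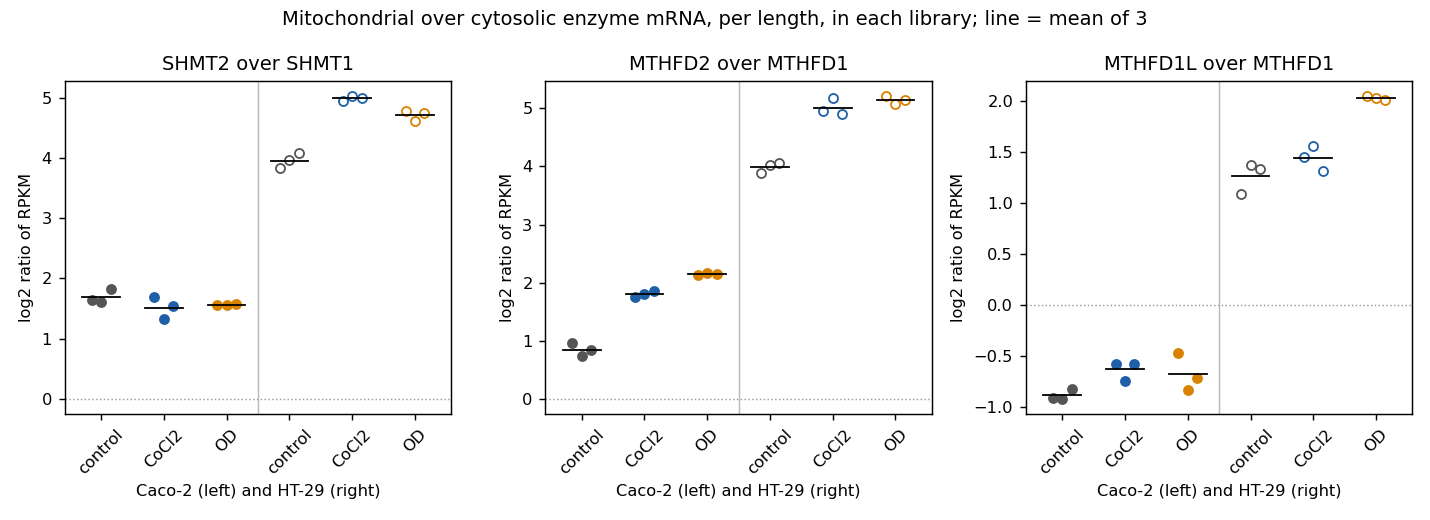
Log2 ratio of RPKM of 3 enzyme pairs in each library, with Caco-2 as filled and HT-29 as open circles, and the mean of 3 replicates as a line. The dotted line marks equal RPKM, whose place depends on the gene lengths used. MTHFD2 over MTHFD1 is above control with both agents in both lines, and SHMT2 over SHMT1 is above control with both agents in HT-29 but not in Caco-2.

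The rest of the folate cycle was counted from a list of 16 genes, 15 of them tested in each line. With CoCl2, 10 were lower and 1 higher past the FDR in Caco-2, and HT-29 had 11 lower and 2 higher. Of all genes tested, 33.1% were lower and 31.6% higher in the first of these comparisons, and 42.2% and 40.7% in the second. SLC19A1, the reduced folate carrier, fell in both lines, from 15 ± 1.17 to 5.94 ± 0.317 CPM in Caco-2 (log2 fold change -1.33, FDR 1.57e-08) and from 15.4 ± 0.849 to 5.36 ± 0.146 CPM in HT-29 (-1.53, FDR 6.61e-13). SLC46A1, the proton-coupled folate transporter of the intestine, fell in Caco-2 by 1.01 (FDR 1.74e-10). With OD, 7 were lower and 4 higher in each line, beside 24.7% and 25.7% of all genes in Caco-2, while HT-29 had 34.0% and 34.7%. MTHFD2L, the relative of MTHFD2, fell in Caco-2 from 10.4 ± 0.914 to 5.15 ± 0.207 CPM (-1.02, FDR 5.41e-06).

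Purine synthesis, which spends cytosolic one-carbon units, was lower for 6 of 6 genes with each agent in HT-29, where 42.2% of all genes were lower with CoCl2 and 34.0% with OD. With CoCl2, 4 of the 6 were called there, against 23.9% of all genes, among them PFAS from 26.8 ± 1.54 to 5.75 ± 1.35 CPM (-2.23, FDR 1.50e-15), ATIC from 126 ± 2.16 to 52.2 ± 1.19 CPM (-1.27, FDR 9.86e-19) and GART from 145 ± 5.68 to 61.2 ± 2.10 CPM (-1.25, FDR 4.46e-18). The median of the list was -1.26, beside -0.03 for all genes tested. With OD its median was -0.68 and ADSL was called, at -1.01 (FDR 1.75e-06), against 7.57% of all genes. In Caco-2 the list was mixed, with 2 genes higher and 4 lower for CoCl2 and 1 higher and 3 lower for OD, against 31.6% and 33.1% of all genes for CoCl2 and 25.7% and 24.7% for OD. MYC, a growth regulator known to act on both pathways, fell in HT-29 from 162 ± 5.79 to 44.4 ± 1.78 CPM with CoCl2 (-1.87, FDR 1.74e-21) and to 74.7 ± 3.01 CPM with OD (-1.12, FDR 1.02e-16). In Caco-2 it rose with CoCl2 from 44.4 ± 4.18 to 104 ± 8.64 CPM (1.23, FDR 1.70e-11). With OD in Caco-2 MYC was also higher past the FDR, but not called. A link between MYC and the genes of either pathway was not tested.

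The transporters of serine and glycine were split in each comparison. Of 10 tested, 4 were higher and 6 lower with CoCl2 in Caco-2, and HT-29 had 4 higher and 4 lower, which is close to the 40.7% and 42.2% of all genes there. In Caco-2 these shares were 31.6% and 33.1%. SFXN2, a mitochondrial carrier related to the serine importer SFXN1, fell from 24.2 ± 0.640 to 2.84 ± 0.538 CPM in Caco-2 (-3.06, FDR 9.55e-15) and from 27.3 ± 1.75 to 2.04 ± 0.636 CPM in HT-29 (-3.74, FDR 7.42e-19). SLC6A9, a glycine transporter of the cell surface, fell by 1.95 and by 2.43 on the log2 scale. SLC25A38, a mitochondrial glycine carrier, rose in Caco-2 from 47.3 ± 1.93 to 98.2 ± 4.61 CPM (1.05, FDR 2.68e-11), and SLC1A4 fell in HT-29 by 1.5 (FDR 4.96e-17). With OD, 5 were higher and 2 lower in Caco-2, with SLC1A4 rising from 26.3 ± 2.45 to 52.6 ± 5.35 CPM (1.00, FDR 1.50e-08), and 2 were higher and 6 lower in HT-29, where SFXN3 rose by 1.30 and SFXN2 fell by 1.20. The shares of all genes with OD were 25.7% higher and 24.7% lower in Caco-2, while HT-29 had 34.7% and 34.0%.

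Of the list for glycine cleavage and use, 9 of 12 genes passed the filter in Caco-2, and 8 did in HT-29. With CoCl2, 1 was higher and 5 lower in Caco-2 and 2 were higher and 3 lower in HT-29, and with OD 1 was higher and 5 lower in Caco-2 and 1 higher and 4 lower in HT-29. Among all genes, 31.6% were higher and 33.1% lower with CoCl2 in Caco-2, while HT-29 had 40.7% and 42.2%, where 3 of 8 lower is no more than that share. With OD these shares were 25.7% and 24.7%, then 34.7% and 34.0%. GLYCTK, which phosphorylates glycerate, fell with CoCl2 from 148 ± 9.35 to 39.7 ± 5.41 CPM in Caco-2 (-1.91, FDR 1.98e-14) and by 1.75 in HT-29. With OD, SARDH, the sarcosine dehydrogenase, fell in Caco-2 by 1.37 (FDR 0.000119). In the methionine cycle and transsulfuration list, 5 of 9 genes were higher and 3 lower with CoCl2 in Caco-2, and 2 of 7 higher and 3 lower in HT-29, the latter near the shares of all genes given above. CTH, which makes cysteine from cystathionine, rose in Caco-2 from 8.60 ± 1.36 to 30.1 ± 3.15 CPM (1.81, FDR 1.02e-11), where MAT1A fell from 43.4 ± 2.09 to 15.1 ± 1.13 CPM (-1.53, FDR 2.36e-12). In HT-29 MAT2A, which like MAT1A makes S-adenosylmethionine, fell from 502 ± 0.631 to 153 ± 3.59 CPM (-1.72, FDR 2.78e-22), and AHCYL1, a relative of the enzyme that splits S-adenosylhomocysteine, rose from 194 ± 1.24 to 636 ± 17.6 CPM (1.71, FDR 1.23e-22). With OD, 2 were higher and 2 lower in Caco-2, where MAT1A fell by 1.15, and 1 was higher and 4 lower in HT-29.

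Genes that ATF4 is known to drive were counted as a list of 12 with ATF4 itself. With CoCl2, 7 were higher and 2 lower in Caco-2, where 31.6% and 33.1% of all genes were, and 10 were higher and 2 lower in HT-29, where 40.7% and 42.2% were. ATF3 rose in Caco-2 from 4.63 ± 0.470 to 33.8 ± 0.835 CPM (2.87, FDR 3.88e-14), with SLC7A11, the cystine importer, and TRIB3 rising by 1.62 and 1.41. DDIT3, a stress-induced regulator of cell death, rose in HT-29 from 74.1 ± 9.74 to 393.5 ± 3.00 CPM (2.40, FDR 3.35e-21), NUPR1 rose by 1.24, and CHAC1 fell from 85.2 ± 2.75 to 24.9 ± 2.16 CPM (-1.78, FDR 7.77e-19). With OD, 11 of 12 were higher and 0 lower in Caco-2, where ATF3 rose by 2.17, and 5 were higher and 6 lower in HT-29, where DDIT3 rose by 1.23. Of all genes, 25.7% were higher and 24.7% lower with OD in Caco-2, while HT-29 had 34.7% and 34.0%. In HT-29 control all 12 were higher than in Caco-2 control past the FDR, where 39.5% of all genes were, and 10 of them were called, against 21.6%. The list median was 2.28 and that of all genes tested -0.0022.

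**Figure D5:**
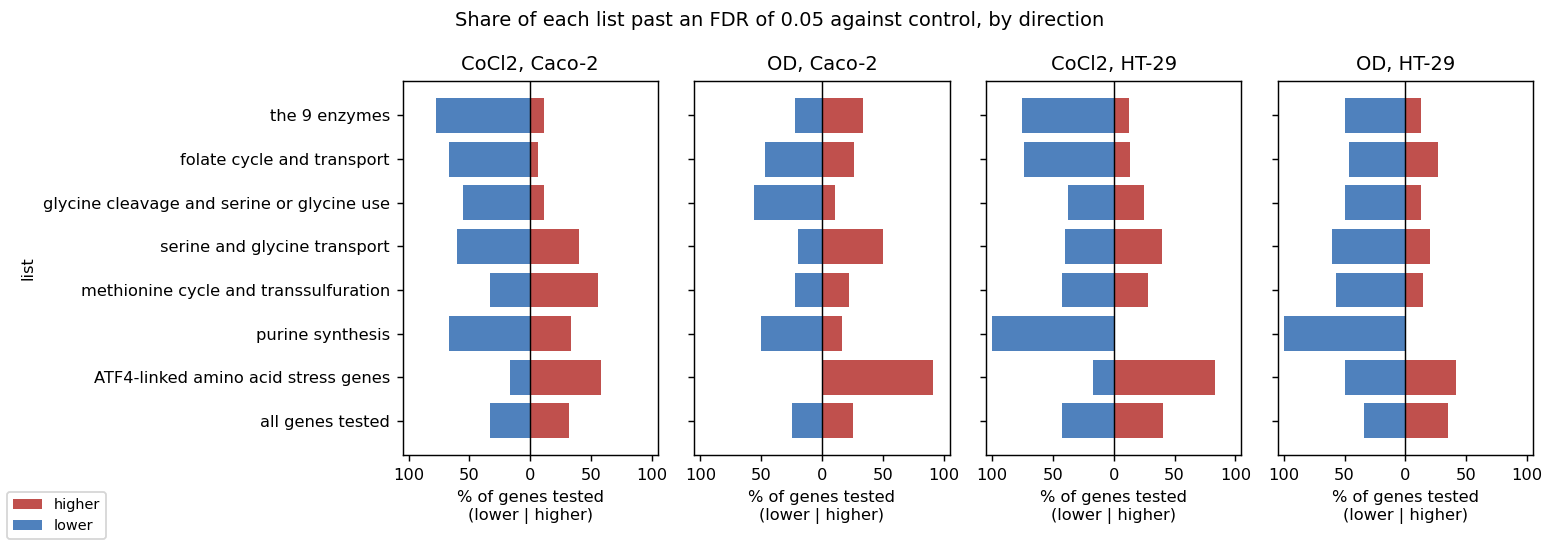
Share of the genes tested in each list that were higher (right) or lower (left) than control at an FDR under 0.05, in percent, for the 4 comparisons with control, with all genes tested as the last bar. All 6 purine synthesis genes lie on the lower side in HT-29 with both agents, and 11 of 12 ATF4-linked genes on the higher side with OD in Caco-2.

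Among themselves the members varied together more closely in some pairs than in others. Over the 18 libraries, after each line's mean was taken off, Pearson's r of log2 CPM was 0.92 for PHGDH with PSAT1, 0.95 for PSPH with MTHFD1 and 0.89 for PSAT1 with SHMT1. MTHFD2 had r from 0.09 to 0.56 with the other 8, and SHMT2 had r of 0.92 to 0.98 with the 3 serine synthesis genes within Caco-2 and of -0.84 to -0.78 within HT-29. These points share libraries, scaling and treatment groups, so the values are a description. By the same measure, among 9659 other genes with a mean of at least 5 CPM in each line, those most like PHGDH were INTS5 (0.99), MST1R (0.98) and PIGO (0.97), those most like PSPH were POFUT1, SEPHS1 and MED29 (0.98 to 0.99), and those most like PSAT1 were TEX261, TRAM2 and IPO9 (0.96 to 0.98). SHMT2 was most like SRC (0.98), ZNF646 and ARHGAP26, and MTHFD1 was most like UBTF, ARHGAP23 and BTBD3 (all 0.97). For MTHFD2 the genes were ATAD2, MASTL and BRPF3 (all 0.95), for MTHFD1L they were CDK2, FRAT2 and SPC24 (all 0.95), and for SHMT1 they were HIPK2, POLA1 and CPSF6 (all 0.95). ALDH1L2 was most like BCL9 (0.90), GLYCTK and SCRIB (both 0.89).

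The genes lie on separate chromosomes apart from SHMT2 and ALDH1L2, both on chromosome 12 (57229573 to 57234935, plus strand, and 105019784 to 105107643, minus strand, GENCODE v44 on GRCh38). PHGDH is at 119648411 to 119744218 of chromosome 1, PSAT1 at 78297125 to 78330093 of chromosome 9 and PSPH at 56011051 to 56051604 of chromosome 7. MTHFD1 is at 64388031 to 64463457 of chromosome 14, MTHFD2 at 74186172 to 74217565 of chromosome 2, MTHFD1L at 150865679 to 151101887 of chromosome 6 and SHMT1 at 18327860 to 18363563 of chromosome 17. SHMT1 shares 197 exon bases with SMCR8 and ALDH1L2 shares 131 with WASHC4, both on the other strand, which is 2.81% and 1.38% of their exon bases. SMCR8 had 29.1 CPM in HT-29 control and 137 CPM with CoCl2, and WASHC4 stayed between 43.2 and 108 CPM over the 6 groups. What these reads add to SHMT1 or ALDH1L2 was not tested.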

How the data were processed

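Per the labels and the study's methods, poly(A) RNA was prepared with a stranded mRNA kit and sequenced as single reads of 75 nt. The submitters' processing notes name cutadapt 2.10, STAR 2.7.5b and edgeR 3.30.3 for the series. The genome was GRCh38.p13 with GENCODE release 34, and the counting tool and its strand setting are not given in the sources used here. The authors deposited a table of counts per gene and a table of log2(RPKM + 1) values, the latter used for gene lengths and as an alternative. Small RNA files were not used.

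From the counts, each line was fitted in edgeR 4.0.16 (R 4.3.3) with filterByExpr, TMM factors and the quasi-likelihood test, with Benjamini-Hochberg adjustment over all genes tested. The differences between lines and between controls came from 1 fit of all 18 libraries. CPM are on TMM-scaled library sizes, and the log2 CPM behind the correlations use a prior count of 2. DESeq2 1.42.0, limma 3.58.1, other scalings and filters, the replicate block, no limit on the fold change and leaving out single libraries were the alternatives. The fit was tested on simulated counts. Replicates of a group differed by more than counting error, with chi-square statistics of 1.96 to 12.6 times their degrees of freedom. P-values measure the spread between these cultures. Loci and overlaps are from GENCODE v44 and upstream sequences from RefSeq.

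The members, lists and tests were chosen with earlier results of these data known. The genes named from each list were, in each comparison, at most 3 with the highest absolute log2 fold change among those called with a mean of at least 5 CPM, and some that the rule names are not reported here. For each member the 3 most alike genes were named.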

Additional observations from a re-analysis of the deposited data

Results flagged for a closer look

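The response of SHMT2 to CoCl2 differed between the lines in a test of the difference itself. The HT-29 response minus the Caco-2 response was 1.17 on the log2 scale (SE 0.0945, FDR 1.89e-12). In TMM-scaled CPM all 3 CoCl2 libraries lay below control in Caco-2 and all 3 above it in HT-29. The rise in HT-29 rests on that scaling. With library size alone SHMT2 stood there at -0.10 (FDR 0.0724), and the difference between lines was 0.97, short of a call. The response of MTHFD2 to OD also differed, at -1.13 (SE 0.104, FDR 7.49e-11), with all 3 OD libraries above control in each line and the larger rise in Caco-2.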

How the results depend on the processing

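Of 1350 values of the 9 genes under 29 alternative settings, 1258 kept their direction and their side of the call, 60 became called, 9 lost a call and 23 changed sign. The settings include no limit on the fold change, which reuses the main fit. There every value past the FDR becomes called and no sign can change, so those values do not test the fit. None of the 22 called values changed sign, and 7 of them lost the call under at least 1 setting. With limma-trend on the deposited log2(RPKM + 1), where the pseudocount shrinks low genes, these were ALDH1L2 with CoCl2 in Caco-2 (-0.45), MTHFD1 with CoCl2 in HT-29 (-0.97), PSPH between the controls (0.97), and PHGDH (-0.998), MTHFD2 (-0.99) and ALDH1L2 (-0.27) for CoCl2 against OD in Caco-2. With library size alone SHMT2 missed the call for the difference between lines with CoCl2 (0.97), and MTHFD2 for CoCl2 against OD without Caco-2 OD replicate 1 (-0.95) and PSPH between the controls without HT-29 control replicate 3 (0.99) did so too. Signs changed only for uncalled values. With library size alone this held for SHMT2 (-0.042) and MTHFD1 (-0.010) with OD in Caco-2, SHMT2 with CoCl2 in HT-29 (-0.10), PHGDH (-0.11) and SHMT2 (-0.068) with OD in HT-29, and SHMT1 (-0.31) and SHMT2 (-0.030) for CoCl2 against OD in HT-29. SHMT1 in the difference between lines with CoCl2 stood at 0.070 with RLE size factors, 0.068 with DESeq2, 0.035 with limma-trend on the deposited values and 0.020 with a pseudocount of 0.1. With single libraries left out, values crossed 0 for PHGDH (-0.028 to 0.086), SHMT2 (-0.0028 to 0.11) and MTHFD1L (-0.16 to 0.021) with OD in HT-29, for SHMT1 (-0.081 to 0.041) and ALDH1L2 (-1.37 to 0.49) in the difference between lines with CoCl2, and for ALDH1L2 with OD (-0.17 to 0.57). The number of members called moved by over 1.5 times with no limit on the fold change, to 8, 5, 7 and 5 for CoCl2 and OD in Caco-2 and HT-29, 9 and 8 for CoCl2 against OD, and 7 and 6 for the differences between lines. For CoCl2 in HT-29 it was 6 with library size alone, 4 with no filter, 4 with all 18 libraries in 1 fit and 1 with limma-trend on the deposited values, against 2. For CoCl2 against OD it was 3, 2 and 2 in HT-29 under the first 3 of these, against 1, and 2 in Caco-2 under the last, against 5. Leaving out single libraries gave 1 to 2 for the difference between lines with OD, with 2 without Caco-2 OD replicate 2 or 3, HT-29 control replicate 1 or 2, or HT-29 OD replicate 3. Over all genes, limma-trend on the deposited values called 1098, 381, 2520 and 744 in the 4 comparisons with control against 3747, 1876, 6524 and 2699, with a pseudocount of 0.1 it called 2116, 878, 3893 and 1295, and without the fold limit 10370, 8084, 13097 and 10876 passed. Replicate numbers are shared between groups, but deviations of same-numbered libraries correlated at -0.18 to 0.19, not above 0.1 in every pair. The samples were therefore not treated as pairs. With 3 libraries per group, this check cannot show that same-numbered cultures were handled apart. With the replicate block, 4, 1, 2 and 1 members were called in the comparisons with control, 5 and 1 for CoCl2 against OD, 1 and 1 for the differences between lines and 6 between the controls, as without it. Depth limits ALDH1L2 in HT-29, where no library held over 11 counts and whether it was tested depended on the filter.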
